A study of Homo sapiens with 6 samples.

Results

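The 43 genes described here encode the cytosolic factors that start, elongate and end protein synthesis in human cells. They were taken by name, as a fixed list of translation factors, from the 58825 genes of the count table, and every one of the 43 passed the filter on low counts. For description they were set in 5 groups by role: 7 genes of eIF2 and its exchange factor eIF2B, 13 subunits of eIF3, 11 genes of the eIF4 cap-binding factors with the poly(A)-binding protein PABPC1, 5 genes of eIF1, eIF5 and eIF6, and 7 elongation and release factors. RNA was sequenced from FaDu, an established line of hypopharyngeal squamous carcinoma cells. There were 3 libraries from cells with an NSUN2 hairpin (shNSUN2) and 3 libraries titled with the name of the line alone (FaDu). NSUN2 is a methyltransferase that places 5-methylcytosine on tRNAs and on some mRNAs. The series asks which transcripts change when it is depleted. No library used here is titled as carrying a non-targeting hairpin, and NSUN2 loss cannot be told apart from hairpin delivery. The labels do not say whether replicates were separate cultures or whether the line with the hairpin is 1 clone, so p-values reflect only how far these samples spread, and that spread may be technical.

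As background, translation of most mRNAs begins when eIF4E binds the 5′ cap, eIF4G joins it to the RNA helicase eIF4A, and eIF3 brings in the small ribosomal subunit with initiator tRNA carried by eIF2. Each round leaves eIF2 bound to GDP, and eIF2B reloads it with GTP. Phosphorylation of the alpha subunit of eIF2 under stress turns eIF2 into an inhibitor of eIF2B, which lowers protein synthesis while favouring mRNAs such as that of ATF4. The 4E-binding proteins hold eIF4E away from eIF4G unless the kinase mTORC1 phosphorylates them.

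Library totals ran from 53612358 to 72788971 estimated counts. NSUN2 stood at 169, 173 and 156 CPM (counts scaled to the library total) in FaDu, against 50.4, 34.7 and 39.6 CPM with the hairpin (log2 fold change -1.997, SE 0.16, edgeR adjusted p = 0.000526). All 7 squamous epithelial markers were detected in both groups, with a summed level of 3383.2 to 3567 CPM in FaDu and 1776 to 2146 CPM in shNSUN2. The keratins KRT5, KRT14, KRT17 and KRT6A and the transcription factor TP63 were called lower, EPCAM was called higher (log2 fold change 0.57, edgeR adjusted p = 0.0125), and CDH1 overlapped between groups (0.07). Transcripts of other tissues were higher in shNSUN2 at low levels. The 8 prostate markers summed to 29.8 to 32.9 CPM in FaDu and 47.9 to 63.1 CPM in shNSUN2, with MSMB at 0 in every FaDu library. The 7 plasma cell markers summed to at most 0.267 CPM in FaDu, with IGKC, IGHM and TNFRSF17 at 0, and to 1.90 to 5.73 CPM in shNSUN2. The 5 smooth muscle markers summed to 10.4 to 11.1 CPM in FaDu, with ACTG2 and CNN1 at 0, and to 11.9 to 25.9 CPM in shNSUN2. The part of these transcripts in the results below was not tested. In bulk RNA, fewer cells of a type and less RNA per cell cannot be told apart.

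Of the 43 translation factors, 9 were higher and 1 was lower in shNSUN2 at an adjusted p under 0.05. The higher genes were EIF2S1, EIF2B1, EIF2B2, EIF2B3, EIF2B5, EIF3B, EIF3J, EIF4G1 and EIF4EBP2, and the lower gene was EIF4EBP1. Over all 19081 genes tested, 8.54% were called higher and 9.97% lower. The share of the 43 called in either direction, 23.3%, was near the 18.5% of all genes. The median log2 fold of the 43 was 0.18 against -0.007 for all genes tested, and 35 of the 43 (81.4%) had a positive fold, against 49.6% of all genes. The groups' CPM did not overlap for 26 of the 43 genes, 23 with shNSUN2 above and 3 with shNSUN2 below, where 20.3% and 22.1% of all genes tested did so. Together the 43 genes took 3.04% ± 0.101 of a FaDu library's counts and 2.91% ± 0.0217 of an shNSUN2 library's (SD, n = 3). EEF1A1 alone supplied 1.46% ± 0.0609 and 1.16% ± 0.0792, and the other 42 genes 1.57% ± 0.0429 and 1.75% ± 0.0576. Only EIF4G1 was called under all 12 alternatives tried, and all 10 called genes kept their direction under them. Leaving out 1 library changed the count, for the members and for all genes. Without FaDu replicate 1 it was 2 higher and 1 lower, where 3.1% and 4.8% of all genes were called. Without FaDu replicate 2 it was also 2 and 1 (2.38% and 4.38% of all genes), and without FaDu replicate 3 it was 1 and 0 (2.51% and 4.38%). It was 3 and 1 without shNSUN2 replicate 1 (4.46% and 5.95%) and 13 and 2 without shNSUN2 replicate 3 (10.5% and 11%). With DESeq2 in place of edgeR, 15 members were called higher and 2 lower, where 12.3% and 13% of all genes were. With the replicate number as a block, 4 were called higher and 1 lower (5.08% and 7.34%).

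**Figure D1:**
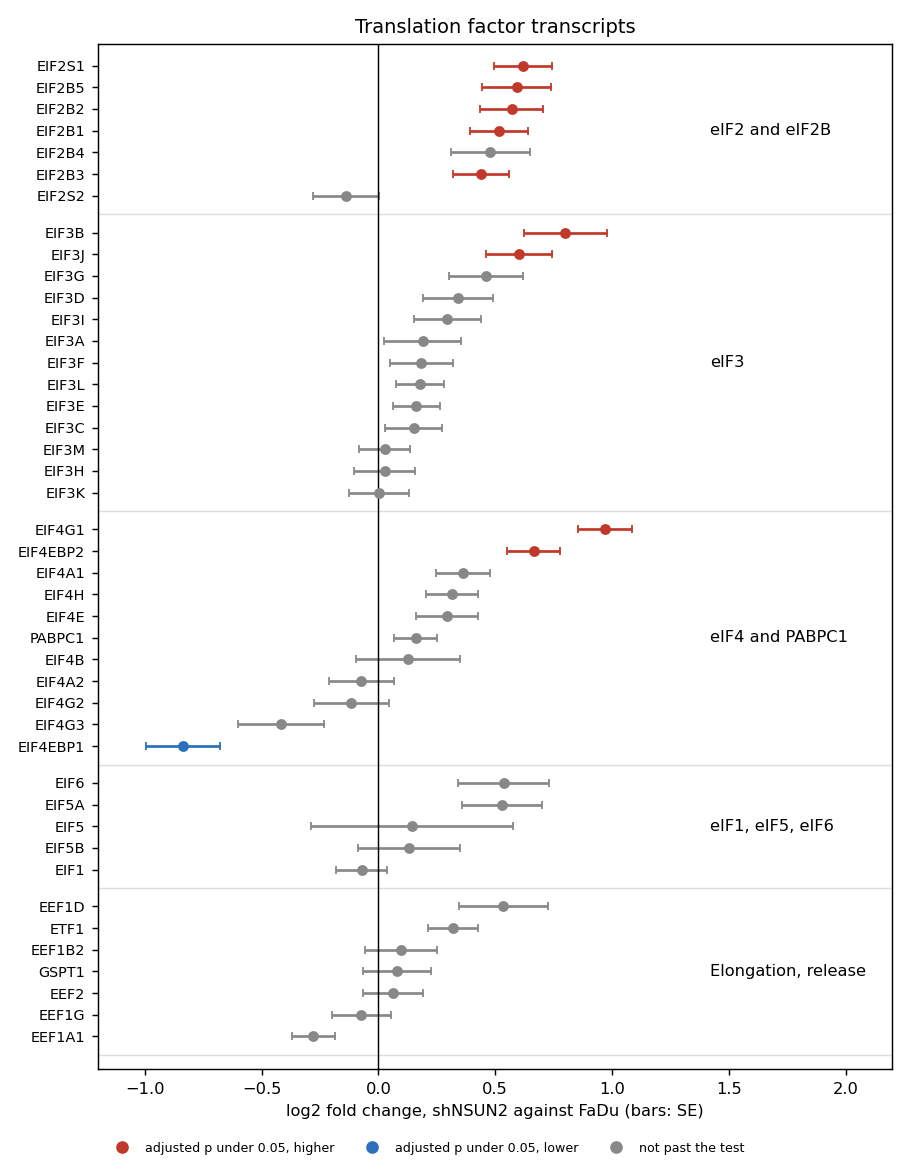
Log2 fold change of each of the 43 translation factor transcripts in shNSUN2 against FaDu (x axis; bars are SE from edgeR, 3 libraries per group), set in 5 groups by role. Red points are the 9 genes called higher, the blue point is EIF4EBP1, called lower, and grey points did not pass the test. The called genes lie in the eIF2 and eIF2B, eIF3 and eIF4 groups.

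Many translation factor mRNAs begin with a terminal oligopyrimidine (TOP) tract, a C at the first transcribed base followed by a run of C and T, through which mTORC1 and the RNA-binding protein LARP1 control their translation and storage. The windows below show the start of the 9 genes with a tract and, for contrast, of 4 called genes without one, because no gene with a tract was called by edgeR. Each runs from 15 bases before to 15 bases after the RefSeq start (GRCh38.p14), 5′ to 3′ on the gene's strand, with the tract in capitals. A tract was counted where the start opened an unbroken run of at least 5 pyrimidines beginning with C, on the gene's strand only.

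EEF1A1, chr6:73521018-73521047, minus strand: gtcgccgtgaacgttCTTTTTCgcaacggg
EEF2, chr19:3985449-3985478, minus strand: gttgacgtcagcgttCTCTTCCgccgtcgt
EEF1B2, second start, chr2:206159880-206159909, plus strand: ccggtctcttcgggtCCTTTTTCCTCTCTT
EIF3D, chr22:36529152-36529181, minus strand: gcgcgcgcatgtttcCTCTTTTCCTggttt
EIF3F, chr11:7987322-7987351, plus strand: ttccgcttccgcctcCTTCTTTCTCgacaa
EIF3K, chr19:38619173-38619202, plus strand: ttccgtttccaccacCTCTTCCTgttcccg
EIF3M, chr11:32583816-32583845, plus strand: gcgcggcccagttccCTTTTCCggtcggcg
EIF4A2, chr3:186783562-186783591, plus strand: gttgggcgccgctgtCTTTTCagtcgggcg
EIF4B, chr12:53006441-53006470, plus strand: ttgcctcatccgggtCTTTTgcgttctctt
EIF4G1, most upstream start, chr3:184314591-184314620, plus strand: tctgtgcggggagccggaaatggttgtgga
EIF4EBP2, chr10:70404130-70404159, plus strand: ctcccgccttcgcccgcttccggtcgtcgt
EIF3B, chr7:2354812-2354841, plus strand: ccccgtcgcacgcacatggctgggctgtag
EIF2S1, chr14:67360313-67360342, plus strand: gcgaggaggttccgcatgcgcggtggagtg

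Windows on chromosome 8 were left out for the 43 genes. RefSeq windows were matched for 34 of the 43, and 9 of the 34 had a tract at 1 of their starts. Among all 27305 genes with a window, taken without that exclusion, 5.14% had a tract. None of these 9 genes was called by edgeR, 1 had an unadjusted p under 0.05, and DESeq2 called 1, EEF1A1, lower. Over all genes 18.5% were called, so a count of 0 among 9 is near that background. Their median log2 fold was 0.06, with a range of -0.28 for EEF1A1 to 0.34 for EIF3D. Of the 25 genes with a window and no tract, 9 were called higher (8.54% of all genes) and none lower (9.97%), with a median of 0.36. EIF4EBP1, the gene called lower, lies on chromosome 8, so its start was not looked at. A list of 10 known TOP mRNAs among the 43, drawn up from general knowledge, gave a like picture. None of EEF1A1, EEF1B2, EEF1D, EEF1G, EEF2, EIF3E, EIF3F, EIF3H, EIF4B and PABPC1 was called by edgeR (2 had an unadjusted p under 0.05), and their median was 0.11 against 0.32 for the other 33 genes. Of these 10, EEF1D, EIF3E, EIF3H and PABPC1 lie on chromosome 8 and were left out. The other 6 had a window and 5 a tract, EEF1G being without one at its annotated start. A match is a description of these letters at an annotated start, and the start used in FaDu cells was not measured. The difference between the lists was not tested. With DESeq2, EEF1A1 was called lower and EEF1D higher, and EEF1A1 was also called lower without shNSUN2 replicate 3. EIF3D was called higher with the correction for GC content and length described below.

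**Figure D2:**
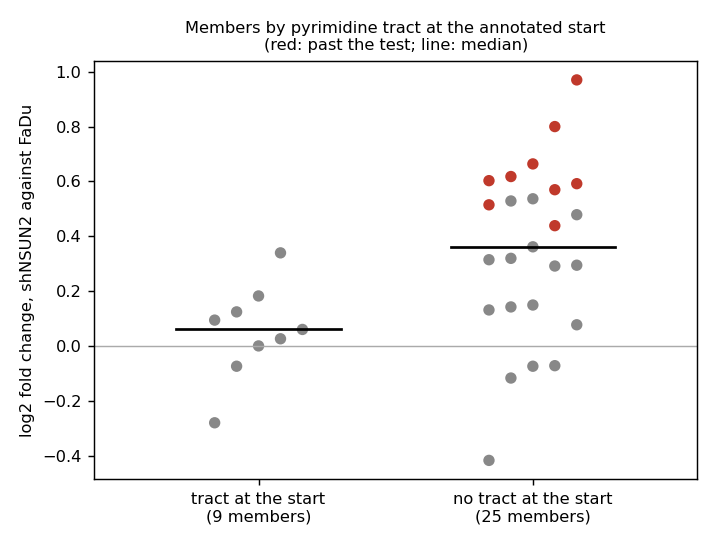
Log2 fold change in shNSUN2 against FaDu (y axis) of the 34 members with a RefSeq start window outside chromosome 8. They are split by whether the start opens a pyrimidine tract. Each point is 1 gene, red where called higher, and lines are medians (0.06 for the 9 genes with a tract, 0.36 for the 25 without).

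Transcripts of 4 of the 5 subunits of the exchange factor eIF2B, and of the alpha subunit of eIF2, were called higher in shNSUN2 with all libraries in the fit. Of the 7 genes in this group, 5 rose and none fell, where 8.54% of all genes were called higher and 9.97% lower, and the median log2 fold was 0.52. EIF2S1, the alpha subunit that stress kinases phosphorylate (chromosome 14, 67359997 to 67386516, GRCh38), had 160.3, 168 and 155 CPM in FaDu and 252, 214 and 275 CPM in shNSUN2. Its 3 shNSUN2 libraries all lay above the FaDu libraries, 1.53-fold higher by the fit (log2 fold change 0.62, SE 0.12, edgeR adjusted p = 0.014). EIF2S2, the beta subunit, overlapped between groups, with 202, 212 and 208 CPM in FaDu and 206, 207 and 151 CPM in shNSUN2 (log2 fold change -0.14, SE 0.14). The gamma subunit EIF2S3, which is not among the 43, is on an accompanying list and is named after its values were seen, had 424 ± 20.2 CPM in FaDu and 484 ± 14.9 CPM in shNSUN2 (SD, n = 3; log2 fold change 0.19, SE 0.10, edgeR adjusted p = 0.218). Subunits of eIF2 thus had log2 folds of 0.62, -0.14 and 0.19, of which only that of EIF2S1 passed the test. The differences between them were not tested.

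The 5 subunits of eIF2B lay close together, with log2 folds of 0.44 to 0.59, and in each of them every shNSUN2 library was above every FaDu library, as in 20.3% of all genes. EIF2B5, the catalytic epsilon subunit (chromosome 3, 184135038 to 184146112), had 74.4, 71.9 and 66.1 CPM in FaDu and 96.8, 95.7 and 128 CPM in shNSUN2 (log2 fold change 0.59, SE 0.15, edgeR adjusted p = 0.0286). EIF2B2, the beta subunit, had 141, 141 and 138 CPM in FaDu and 202, 178 and 244 CPM in shNSUN2 (0.57, SE 0.14, edgeR adjusted p = 0.0251). Replicate 3 of shNSUN2 was the highest library for both. EIF2B1, the alpha subunit of the regulatory core, rose from 93.4 ± 2.83 to 133 ± 15.9 CPM, and EIF2B3, the gamma subunit, from 33.6 ± 2.10 to 45.6 ± 2.52 CPM (edgeR adjusted p = 0.0268 and 0.0379). EIF2B4, the delta subunit, had 21.6, 20.9 and 21.3 CPM in FaDu and 25.7, 26.1 and 37.0 CPM in shNSUN2. Its log2 fold of 0.48 (SE 0.17) did not pass the test (edgeR adjusted p = 0.0862). The 4 calls within eIF2B were not kept under every alternative, and fewer of all genes were called higher under those that lost them. With the replicate number as a block none of the 4 was called (log2 folds of 0.44 to 0.58, adjusted p of 0.0555 to 0.0947). The share of all genes called higher was then 5.08%, against 8.54% in the main fit. Without FaDu replicate 1, 2 or 3 none of the 4 was called, and neither was EIF2S1. Log2 folds of the 5 genes were then 0.49 to 0.63, 0.42 to 0.65 and 0.41 to 0.59, with adjusted p of 0.0635 to 0.0952, 0.0589 to 0.151 and 0.0756 to 0.15. Without shNSUN2 replicate 1, EIF2S1 alone of the 5 was called (0.44 to 0.66; adjusted p of 0.0472 to 0.0852).

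Of the 13 subunits of eIF3, the scaffold that holds the initiation complex on the small ribosomal subunit, 2 rose and none fell. The share called, 15.4%, was near the 18.5% of all genes. The median log2 fold was 0.18. The folds of EIF3K, EIF3H and EIF3M lay near 0 and changed sign under 7, 2 and 2 of the 12 alternatives. EIF3B, a core subunit that binds EIF3A, EIF3G and EIF3I (chromosome 7, 2354086 to 2380745), had 269.5, 251 and 268 CPM in FaDu and 445, 349.5 and 578 CPM in shNSUN2. Its shNSUN2 libraries were all higher than the FaDu libraries but spread widely among themselves (log2 fold change 0.80, SE 0.18, edgeR adjusted p = 0.0197). EIF3J, a loosely bound subunit at the mRNA entry channel (chromosome 15, 44537057 to 44563029), had 88.5, 87.9 and 79.0 CPM in FaDu and 139.7, 107 and 141 CPM in shNSUN2 (0.60, SE 0.14, edgeR adjusted p = 0.0237). Neither was called without FaDu replicate 1, 2 or 3 or shNSUN2 replicate 1. EIF3B then had log2 folds of 0.82, 0.77, 0.81 and 0.83 (adjusted p of 0.0661, 0.0834, 0.0773 and 0.0561), and EIF3J of 0.63, 0.63, 0.55 and 0.55 (adjusted p of 0.0761, 0.0848, 0.108 and 0.0737).

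The other 11 eIF3 subunits did not pass the edgeR test. DESeq2 called 1 of them, EIF3G, higher (adjusted p = 0.0424, in a range of 0.0187 to 0.216 over all alternatives). EIF3G and EIF3I, which form a module with EIF3B, had log2 folds of 0.46 (SE 0.16) and 0.295 (SE 0.14), with every shNSUN2 library above every FaDu library. EIF3A, the largest scaffold subunit, had 304, 322 and 320.5 CPM in FaDu and 436, 368 and 275 CPM in shNSUN2. Its highest and its lowest library were both in the shNSUN2 group (0.19, SE 0.17), and without shNSUN2 replicate 3 it was called higher, at 0.35. Of the subunits of the octamer around it, EIF3C, EIF3E, EIF3F and EIF3L had log2 folds of 0.15 to 0.18, and EIF3H, EIF3K and EIF3M of 0.00 to 0.03. EIF3D, which can bind the cap of some mRNAs, had a fold of 0.34 (SE 0.15). EIF3C has a near-identical copy, EIF3CL, on the same chromosome, and the counting could split reads between them. EIF3CL had 1009.5 ± 33.6 CPM in FaDu and 1167 ± 175 CPM in shNSUN2, and EIF3C 914 ± 35.1 and 1013.6 ± 143 CPM (SD, n = 3), so both are uncertain.

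The eIF4 group held the largest change among the 43 genes. EIF4G1, the scaffold that binds eIF4E, eIF4A, eIF3 and PABPC1 (chromosome 3, 184314495 to 184335358), had 490.3, 543 and 529 CPM in FaDu and 1049.9, 907 and 1102.5 CPM in shNSUN2. All shNSUN2 libraries were well above the FaDu libraries, 1.96-fold by the fit (log2 fold change 0.97, SE 0.11, edgeR adjusted p = 0.00193). Over the alternatives its log2 fold ran from 0.91 to 1.05 and its adjusted p from 4.78e-11 to 0.0144. Its relatives were not called. EIF4G3, a second full-length scaffold, had 80.8, 86.6 and 91.5 CPM in FaDu and 74.0, 73.0 and 47.0 CPM in shNSUN2, lower in every shNSUN2 library but not past the test (-0.42, SE 0.19, edgeR adjusted p = 0.157). EIF4G2, a shorter relative that lacks the eIF4E-binding part, overlapped between groups at 366 ± 15.8 and 337 ± 74.9 CPM (SD, n = 3; -0.12, SE 0.16). These differences between relatives were not tested.

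Of the 4E-binding proteins, EIF4EBP1 and EIF4EBP2 moved in opposite directions. EIF4EBP3, which is on an accompanying list, had 1.1 CPM in FaDu and 1.0 CPM in shNSUN2 on average. It overlapped between groups (log2 fold change -0.16, SE 0.525, edgeR adjusted p = 0.862). EIF4EBP1 had 62.4, 61.6 and 70.8 CPM in FaDu and 29.2, 41.9 and 37.9 CPM in shNSUN2, with no overlap (log2 fold change -0.84, SE 0.16, edgeR adjusted p = 0.0119). EIF4EBP1 is a known target of ATF4. EIF4EBP2 (chromosome 10, 70404379 to 70428618) had 70.2, 65.7 and 63.5 CPM in FaDu and 108, 98.2 and 109.5 CPM in shNSUN2, again with no overlap (0.66, SE 0.11, edgeR adjusted p = 0.0079). Without FaDu replicate 3 neither was called, with log2 folds of -0.77 and 0.63 (adjusted p of 0.058 and 0.0521). Both were called under each of the other 11 alternatives, where the adjusted p ran from 8.02e-05 to 0.0436 for EIF4EBP1 and from 3.99e-06 to 0.0493 for EIF4EBP2. EIF4E, the cap-binding protein they inhibit, had 42.6, 47.2 and 47.2 CPM in FaDu and 59.6, 59.6 and 48.5 CPM in shNSUN2, which did not pass the test (0.29, SE 0.13, edgeR adjusted p = 0.163). EIF4E was called higher without shNSUN2 replicate 3, at 0.39. The ratio of EIF4EBP1 to EIF4E within a library was 1.47, 1.3 and 1.5 in FaDu and 0.491, 0.703 and 0.782 in shNSUN2. All 3 shNSUN2 ratios were lower, by 1.14 on the log2 scale. An exact permutation test, two-sided, returned p = 0.1, which no split of 3 and 3 libraries can go below. The ratio is not scaled for transcript length and is read only between libraries.

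**Figure D3:**
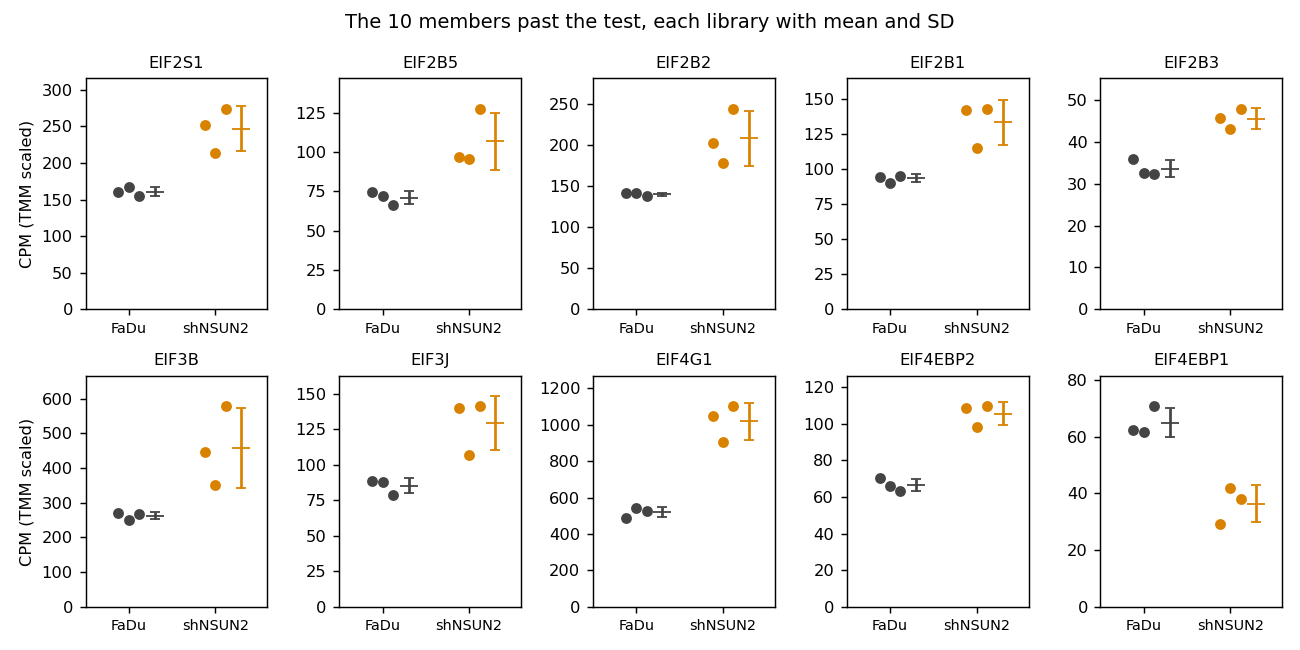
CPM of the 10 called genes in each of the 6 libraries (points, replicates 1 to 3 from left to right; y axes start at 0), with the mean and SD beside them. In each panel the 3 shNSUN2 libraries lie apart from the 3 FaDu libraries, above them in 9 genes and below them for EIF4EBP1.

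The helicases EIF4A1 and EIF4A2, close paralogs that unwind mRNA for scanning, did not pass the test. EIF4A1 had 315, 335 and 323 CPM in FaDu and 402, 376 and 472 CPM in shNSUN2 (0.36, SE 0.12, edgeR adjusted p = 0.0682), and EIF4A2 had 234.9, 251 and 261.5 CPM and 262, 254.5 and 193 CPM (-0.07, SE 0.14). Without shNSUN2 replicate 3 the log2 fold of EIF4A2 was 0.06. EIF4A1 was called higher with DESeq2, with the GC and length correction and without shNSUN2 replicate 3 (adjusted p = 0.038, 0.0205 and 0.0415, in a range of 0.0205 to 0.211 over all alternatives). The ratio of EIF4A2 to EIF4A1 was 0.746, 0.749 and 0.81 in FaDu and 0.653, 0.676 and 0.41 in shNSUN2. It was lower in all 3 shNSUN2 libraries by 0.44 on the log2 scale (exact two-sided permutation p = 0.1, the smallest possible). Without shNSUN2 replicate 3 the difference was -0.21, so that library carried much of it. EIF4H and EIF4B stimulate the helicase. EIF4H had 633 ± 29 CPM in FaDu and 787 ± 82.9 CPM in shNSUN2 (0.32, SE 0.11), and EIF4B 407 ± 117 and 443.5 ± 87.7 CPM (0.12, SE 0.22). PABPC1, which joins the poly(A) tail to eIF4G, had 1813, 1785 and 1797 CPM in FaDu and 2058, 2023 and 1942 CPM in shNSUN2. Its shNSUN2 libraries were all higher but its log2 fold of 0.16 (SE 0.09) did not pass the test.

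**Figure D4:**
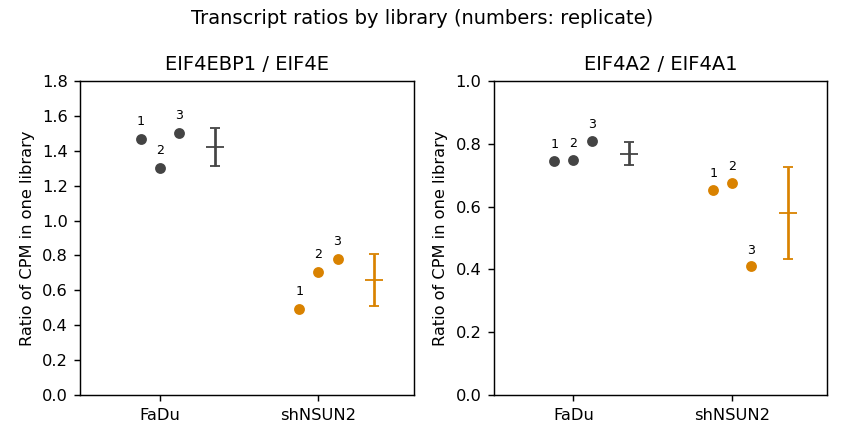
Ratios of CPM within each library (y axes, starting at 0) for EIF4EBP1 to EIF4E and for EIF4A2 to EIF4A1, with replicate numbers, mean and SD. The EIF4EBP1 to EIF4E ratio was 1.3 to 1.5 in FaDu and 0.491 to 0.782 in shNSUN2, and the lowest EIF4A2 to EIF4A1 ratio, 0.41, was in shNSUN2 replicate 3.

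None of EIF1, EIF5, EIF5A, EIF5B and EIF6 passed the edgeR test, although 2 of the 5 had an unadjusted p under 0.05 and DESeq2 called 1, EIF5A. EIF5A, an elongation and termination factor that carries the modified residue hypusine, had 435, 410.3 and 338 CPM in FaDu and 489, 509.7 and 708 CPM in shNSUN2 (0.53, SE 0.17, edgeR adjusted p = 0.0682). EIF6, which keeps free large ribosomal subunits apart from small ones, had 192, 185 and 171 CPM in FaDu and 243.5, 202 and 349.7 CPM in shNSUN2 (0.54, SE 0.20, edgeR adjusted p = 0.0948). In both genes every shNSUN2 library was above every FaDu library and replicate 3 of shNSUN2 was the highest. Both were called higher with the GC and length correction, EIF5A also with DESeq2 and EIF6 also without shNSUN2 replicate 2. EIF1, which guards start codon choice, had 506 ± 15.5 and 482 ± 44.9 CPM (-0.07, SE 0.11). EIF5B, which joins the ribosomal subunits, had 92.9 ± 5.85 and 102 ± 31.8 CPM (0.13, SE 0.22), and EIF5, the GTPase activator of eIF2, 87.6 ± 49.1 and 96.7 ± 37.8 CPM (SD, n = 3; 0.14, SE 0.43).

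None of the 7 elongation and release factors passed the edgeR test, 3 had an unadjusted p under 0.05, and DESeq2 called EEF1A1, EEF1D and ETF1. Their median log2 fold was 0.08. EEF1A1, which delivers aminoacyl-tRNA to the ribosome, had 13964, 14518 and 14580.3 CPM in FaDu and 11735, 12148 and 11600.5 CPM in shNSUN2. It was lower in every shNSUN2 library (-0.28, SE 0.09, edgeR adjusted p = 0.0696) and was called lower with DESeq2 and without shNSUN2 replicate 3 (adjusted p = 0.0463 and 0.0427, in a range of 0.0427 to 0.224). Among its partners, EEF1D, part of the factor that reloads EEF1A1 with GTP, had 295.5, 290.5 and 221.5 CPM in FaDu and 321, 356 and 493 CPM in shNSUN2 (0.54, SE 0.19, edgeR adjusted p = 0.0871). The others, EEF1B2 and EEF1G overlapped between groups, with log2 folds of 0.10 (SE 0.15) and -0.07 (SE 0.13). EEF2, the translocase, had 1967, 1849 and 2143 CPM in FaDu and 1820.4, 2011 and 2384 CPM in shNSUN2, also overlapping (0.06, SE 0.13). Of the release factors, ETF1, which reads stop codons, had 255, 283 and 267 CPM in FaDu and 362, 327 and 316 CPM in shNSUN2. ETF1 was higher in every shNSUN2 library without passing the test (0.32, SE 0.11, edgeR adjusted p = 0.0763), and was called with DESeq2, with the GC and length correction and without shNSUN2 replicate 3. Its GTPase partner GSPT1 had 297 ± 43.2 and 313 ± 35.7 CPM (0.08, SE 0.15).

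Within the shNSUN2 group, replicates 1 and 3 deviated in opposite directions along the members' GC content. The log2 CPM of replicate 3 relative to replicates 1 and 2 had a Spearman rho of 0.58 with the GC content of the longest GENCODE 29 transcript across the 43 genes. With exonic length the rho was -0.24. Replicate 1 had a rho of -0.61 with GC content relative to the other 2, and the 3 FaDu libraries had 0.29, -0.27 and -0.03. The genes share libraries and are not independent points. Replicate 3 was lowest for EIF5B, at -0.76, and highest for EIF5, at 0.90. The group difference itself had a rho of 0.20 with GC content. With a correction of each library for GC content and exonic length, 18 of the 43 genes were called higher, where 14.2% of all genes were, and 1 lower, where 11.6% were. The 18 held all 9 called without the correction, and the others were EIF2B4, EIF3D, EIF3G, EIF4A1, EIF4E, EIF4H, EIF5A, EIF6 and ETF1. The median log2 fold was then 0.30 against 0.033 for all genes. Without shNSUN2 replicate 3 all 10 calls remained.

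**Figure D5:**
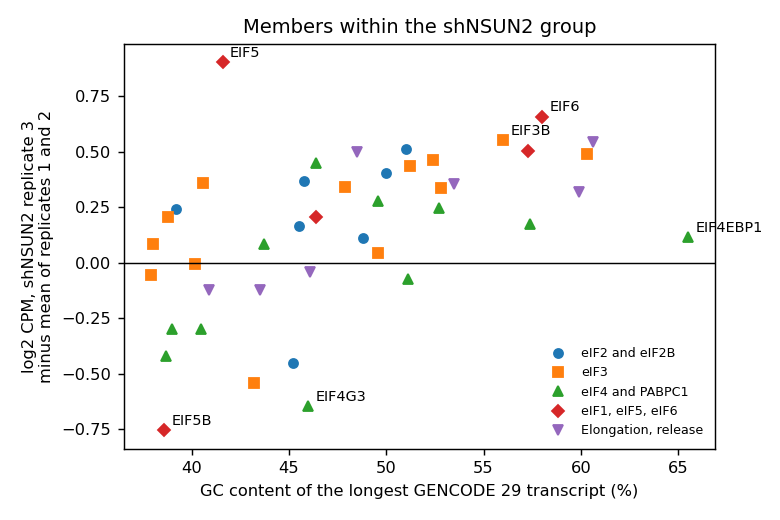
For each of the 43 genes, log2 CPM in shNSUN2 replicate 3 minus the mean of replicates 1 and 2 (y axis) against the GC content of its longest transcript in percent (x axis), marked by group. Points rise from left to right (Spearman rho 0.58, n = 43 genes), with EIF5B lowest at -0.76 and EIF5 highest at 0.90.

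Other genes of the translation machinery were followed on 5 accompanying lists. Of 24 further initiation factors, 4 rose and 3 fell, 29.2% against 18.5% of all genes, and the 3 that fell were relatives of factors above. EIF4E3, a cap-binding relative of EIF4E, had 8.98, 8.99 and 9.71 CPM in FaDu and 3.87, 4.48 and 3.94 CPM in shNSUN2 (-1.17, SE 0.16, edgeR adjusted p = 0.00316). EIF5A2, a paralog of EIF5A, fell from 25.1 ± 1.90 to 11.5 ± 1.83 CPM, and PABPC1L, a relative of PABPC1, from 22.3 ± 3.31 to 10.3 ± 1.62 CPM (edgeR adjusted p = 0.00398 and 0.00638). These 3 were called under all 12 alternatives. PABPC4, another poly(A)-binding protein, rose from 140.7 ± 2.40 to 207 ± 34.0 CPM (0.56, SE 0.14, edgeR adjusted p = 0.0288) but was not called without any 1 FaDu library or without shNSUN2 replicate 1 (adjusted p of up to 0.11).

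Of 24 genes that modify, recycle or accompany elongation and release factors, 23 were tested, 3 rose and none fell, a share of 13% against 18.5% of all genes. METTL13, which methylates EEF1A1, rose from 44.9 ± 3.59 to 77.3 ± 18.1 CPM. DOHH, which completes the hypusine of EIF5A, rose from 8.91 ± 1.53 to 18.8 ± 7.13 CPM, and DPH2, of the pathway to the diphthamide of EEF2, from 34.2 ± 3.77 to 59.8 ± 20.1 CPM (SD, n = 3; edgeR adjusted p = 0.0212, 0.0318 and 0.0495). None of these 3 was called without FaDu replicate 1, 2 or 3 (adjusted p of up to 0.0842, 0.116 and 0.168 over the alternatives), nor DOHH and DPH2 without shNSUN2 replicate 1 or DPH2 without replicate 3. Of 8 eIF2 kinases, eIF2 phosphatase subunits and their regulators, edgeR called 1 (12.5%), IMPACT, an inhibitor of GCN2 activation, lower at -0.46 (SE 0.12, edgeR adjusted p = 0.0336). It was not called without any 1 FaDu library or without shNSUN2 replicate 1 (adjusted p of up to 0.136). DESeq2 also called the kinase EIF2AK2 and the GCN2 activator GCN1, both higher.

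Of 15 genes of the mTORC1 axis, 2 rose and 2 fell, 26.7% against 18.5% of all genes. DESeq2 called 4 higher and 2 lower, where 12.3% and 13% of all genes were. It added RPTOR and LARP1, both higher, which did not pass the edgeR test (log2 folds of 0.39 and 0.36, edgeR adjusted p = 0.0826 and 0.0686). RPS6KB2, an S6 kinase, rose from 45.4 ± 3.52 to 97.9 ± 26.6 CPM (1.11, SE 0.19, edgeR adjusted p = 0.0086) and was called under all 12 alternatives. MTOR itself rose from 119.9 ± 4.82 to 156.5 ± 9.50 CPM (0.39, SE 0.11, edgeR adjusted p = 0.0425). PDCD4, an inhibitor of eIF4A, fell from 23.3 ± 3.24 to 9.80 ± 3.60 CPM, and DDIT4, a stress-induced inhibitor of mTORC1, had 1028, 1036 and 1069 CPM in FaDu and 339, 723 and 382 CPM in shNSUN2 (edgeR adjusted p = 0.0156 and 0.0282). The calls of MTOR and DDIT4 were lost without FaDu replicate 1, 2 or 3 or shNSUN2 replicate 1 (adjusted p of up to 0.172 and 0.125). MTOR also lost its call without shNSUN2 replicate 2 and DDIT4 without replicate 3. The call of PDCD4 was lost without FaDu replicate 1 or 3 or shNSUN2 replicate 1 (adjusted p of up to 0.0653). None of the 10 mitochondrial translation factors was called by edgeR, 3 had an unadjusted p under 0.05, DESeq2 called 2, TSFM and MRPL58, and their median log2 fold was 0.13.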

How the data were processed

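RNA sequencing of 3 FaDu and 3 shNSUN2 libraries was analysed from 1 table of estimated counts per gene, deposited by the authors as whole numbers for 58825 Ensembl identifiers. Per the submitters' processing notes, HISAT2 2.0, StringTie 1.3.0 and Bowtie 0.12.2 were used. The same notes name only a mouse build, mm8, although the identifiers are human. Which human build, annotation and strand setting were used is not given in the sources read here. The value 4 was 3.25 to 3.81 times as frequent as the mean of 3 and 5, so units may not be single fragments and no counting interval is given. Symbols came from a gene name table and GENCODE 29 (58817 identifiers with a symbol), and positions from GENCODE 29 on GRCh38. Exons of another gene overlapped 27 of the 43 members, and 22 have pseudogenes of their name. EEF1A1 held 88.3% and 88.8% of the counts of itself and its 39 pseudogenes in FaDu and shNSUN2, and EIF4E 80.2% and 81.2% with its 5. Such counts are uncertain.

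Tests across genes used edgeR 4.0.16 under R 4.3.3 (glmQLFit and glmQLFTest, robust; TMM; filterByExpr with a minimum count of 10 and total of 15; group alone), which kept 19081 genes. A call is a Benjamini-Hochberg adjusted p under 0.05 over all of them, two-sided. SE is the log2 fold change over the square root of F. CPM use TMM-scaled totals. Alternatives were DESeq2 1.42.0, its size factors, no filter, each library left out, replicate number as a block, lowess offsets on GC content and exonic length, and the block with those offsets. In simulated data on 19081 genes, edgeR recovered 2.7%, 24%, 70.7% and 84.7% of log2 changes of 0.5, 1, 2 and 3. Only a small part of the genes was changed there, drawn from all expression levels, while 18.5% of all genes were called here. The rates are therefore not the sensitivity for the members in these data. The members and lists were chosen with earlier results of these data known. Named genes are all members, NSUN2 and, of each accompanying list, up to 4 called genes with the smallest adjusted p and at least 5 CPM in the higher group. EIF2S3, EIF3CL, EIF4EBP3, the DESeq2 calls and single cell type markers fall outside this rule and were named after their values were seen.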

Additional observations from a re-analysis of the deposited data

How the results depend on the processing

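The count of members called higher, 9, was 15 with DESeq2, 18 with the GC and length offsets and 4 with the replicate block, and 1 to 13 when 1 library was left out. The count called lower, 1, was 2 with DESeq2 and 0 to 2 with 1 library left out. The count of 0 came without FaDu replicate 3, where edgeR called 861 of all genes lower. Leaving out a FaDu library lowered calls over all genes too: without replicate 1, 2 or 3, 3.1%, 2.38% and 2.51% of all genes were called higher. The median log2 fold of the members stayed between 0.15 and 0.30 under all 12 alternatives. With the replicate block, EIF2B1, EIF2B2, EIF2B3, EIF2B5 and EIF3J lost their calls at log2 folds of 0.51, 0.56, 0.44, 0.58 and 0.59. The block with GC and length offsets kept all 10 calls and added 1. Of the accompanying genes, PABPC4, DPH2, IMPACT and MTOR were not called with the block (adjusted p = 0.0547, 0.0877, 0.0899 and 0.102), nor DPH2 and IMPACT with the block and offsets (0.05 and 0.0614). Same-numbered libraries did not deviate together (correlations of -0.036, 0.024 and 0.007) and not every library correlated best with its own number. The labels do not say whether the numbers pair the samples, and correlations near 0 cannot decide it. Without the filter on low counts EIF2B3, MTOR and DDIT4 were not called (adjusted p = 0.07, 0.0873 and 0.0559). The cause of the other shifts was not tested.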

Other observations

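Among the members, EIF5 and EIF4B varied more within groups than between them. EIF5 had 144, 66.9 and 52.2 CPM in FaDu and 80.2, 69.9 and 140.0 CPM in shNSUN2, so that 1 library of each group was high. EIF4B had 314, 367 and 539 CPM in FaDu and 367, 425 and 539 CPM in shNSUN2, with replicate 3 the highest in both. EIF3H had 414.5, 563.5 and 511 CPM in FaDu and 497, 515 and 504.5 CPM in shNSUN2, with the widest spread in FaDu.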
